A study of Oryza sativa with 2 samples.

Results

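AGPS2, SSII-2, TPP1 and TPP4 are 4 rice genes at the starch and trehalose ends of leaf sugar metabolism. Each was chosen by name with 1 probe set of the Affymetrix rice GeneChip, out of 17905 genes with a probe set of their own. Their signals were compared between leaves of the control 9311, an indica rice variety, and leaves of 9311 carrying an LRK1 transgene, labelled LRK1 060615. LRK1 encodes a receptor-like kinase with leucine-rich repeats, and both groups share the 9311 background. Plants were 6 weeks old, untreated, and grown at 28 °C with 14 h of light and 10 h of darkness, and leaves of 10 plants per genotype were taken. The labels used here state neither the promoter of the transgene nor how many transgenic lines were sampled. Each genotype had 1 array, so replicate error could not be estimated and no p-value could be computed, and precision is limited by the number of arrays. The results compare these 2 arrays alone, and every ratio is the log2 signal of the transgenic array minus that of the control array.

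Leaves store part of the carbon fixed by day as starch in the chloroplast and break it down at night. ADP-glucose pyrophosphorylase makes ADP-glucose, the glucose donor of starch, and starch synthases add that glucose to growing chains. Trehalose 6-phosphate is made in trace amounts in plants and acts as a signal of sucrose supply that restrains the energy-sensing kinase SnRK1. Trehalose-6-phosphate phosphatases (TPPs) remove its phosphate and so lower the signal.

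The signals of AGPS2 and TPP1 were slightly more than 2-fold higher on the transgenic array, that of SSII-2 was higher by less than 2-fold, and that of TPP4 was under the level taken as measured on the control array. A signal was taken as measured where it reached a floor of 5.40 (log2), the median of all 57258 probe sets other than array controls. A probe set counted as higher or lower where it was measured on both arrays with a difference of 2-fold or more, a log2 ratio of 1. By this rule 2 of the 4 genes were higher and none was lower, and 3 of the 4 reached the floor on both arrays. Over all 24426 probe sets at the floor on both arrays, 8.36% were higher and 9.95% lower by the same rule. The 4 genes and the gene lists below were chosen with earlier results of these data known. Their counts set beside shares over all probe sets or genes are therefore no test. The ratios of the 4 genes ran from 0.55 to 1.15, beside a median of 0.08 over those 24426 probe sets.

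**Figure D1:**
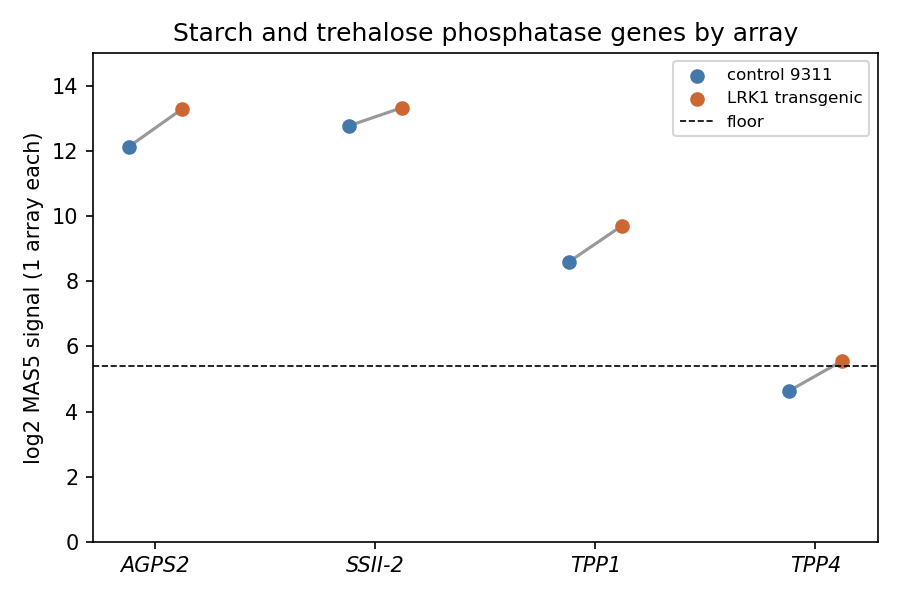
Log2 MAS5 signal (vertical axis) of each gene on the control 9311 array (blue) and the LRK1 transgenic array (orange), 1 array each, with the floor of 5.40 as a dashed line. On the probe sets plotted, all 4 genes lie higher on the transgenic array, and only TPP4 crosses the floor, from 4.63 to 5.55. Other probe sets of SSII-2, not plotted, had ratios of 0.04 and -0.45.

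AGPS2 (LOC4345339) encodes a small subunit of ADP-glucose pyrophosphorylase, the enzyme of the committed step of starch synthesis. Its log2 signal was 12.12 in control and 13.27 in transgenic leaves, a linear signal of 4457 against 9887. The ratio was 1.15, or 2.22-fold higher, and both signals stood more than 6 log2 units above the floor. The gene has 2 RefSeq transcripts in the gene table, and rice makes from it a plastid form used in leaves and a cytosolic form used in endosperm. The suffix of the probe set marks transcripts of 1 gene measured together, so these signals do not separate the forms. No other probe set was tied to AGPS2 in the annotation used, so no second measurement of the ratio was available here.

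SSII-2 (LOC4330709) encodes a soluble starch synthase, the isoform of its class expressed mainly in leaves, which lengthens short chains of amylopectin. Its log2 signal was 12.76 in control and 13.32 in transgenic leaves, linear 6958 against 10219. The ratio of 0.55, or 1.47-fold, did not reach 2-fold. The other probe sets of this gene disagreed with it in direction or size. Its second probe set read 5.93 in control and 5.97 in transgenic leaves, a ratio of 0.04. The third probe set read 6.88 in control and 6.42 in transgenic leaves, a ratio of -0.45. The direction of SSII-2 therefore rests on which probe set is read.

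TPP1 (LOC4330221) encodes a trehalose-6-phosphate phosphatase that responds to cold, and its overexpression in rice has been tied to tolerance of salt and cold. Its log2 signal was 8.59 in control and 9.70 in transgenic leaves, linear 386 against 829. The ratio was 1.10, or 2.15-fold higher, and both signals were more than 3 log2 units above the floor. TPP4 (LOC4330753) encodes another member of the same family. Its log2 signal was 4.63 on the control array, under the floor, and 5.55 on the transgenic array, 0.15 over it. The difference was 0.92, but with a control value under the floor no fold is given for TPP4. A signal counted as above the floor on 1 array alone where it reached 2 times the floor there, which TPP4 did not, and 1.71% of all 57258 probe sets did so on the transgenic array and 1.08% on the control array. Both phosphatase genes had 1 probe set each in the annotation used.

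The size of each ratio was set beside that of probe sets of like signal, since ratios spread more widely at low signal. Among the 1229 probe sets whose mean log2 signal lay within 0.5 of that of AGPS2, the interquartile range of ratios was -0.40 to 0.53, and 6.67% reached 2-fold higher. Among the 1014 probe sets near SSII-2 it was -0.34 to 0.59, so SSII-2 at 0.55 lay inside it. Near TPP1, among 3441 probe sets, it was -0.51 to 0.45, and 7.41% reached 2-fold higher. Near TPP4, among 7176 probe sets, it was -0.43 to 1.20, and 30.5% had a ratio of at least 1. AGPS2 and TPP1 thus lay above the interquartile range at their signal, whereas SSII-2 and TPP4 lay within it.

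**Figure D2:**
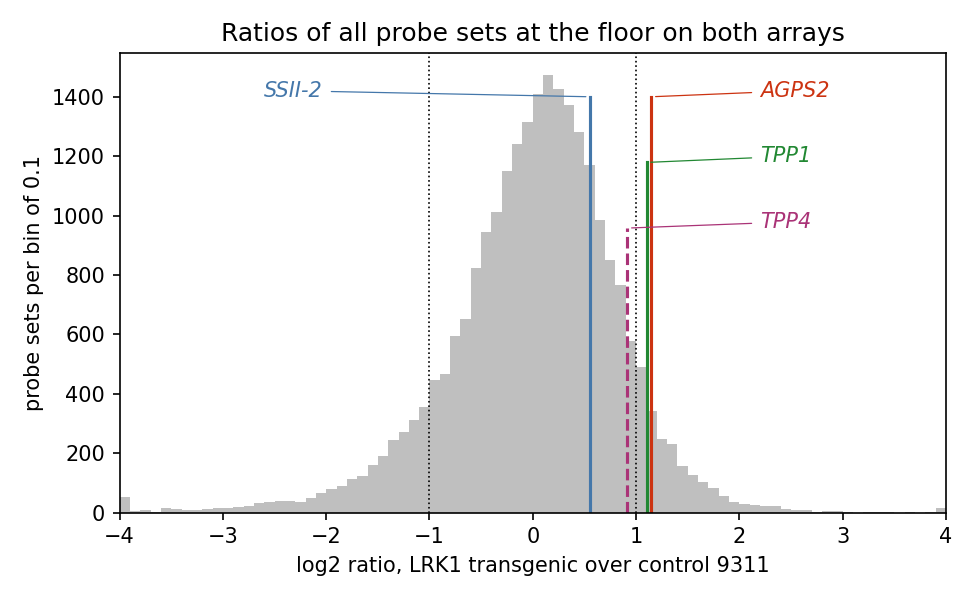
Number of probe sets per bin of 0.1 (vertical axis) by log2 ratio of LRK1 transgenic over control 9311 (horizontal axis), for the 24426 probe sets at the floor on both arrays, with ratios beyond 4 in either direction placed in the outermost bars and dotted lines at 2-fold. Coloured lines mark AGPS2 at 1.15, TPP1 at 1.10 and SSII-2 at 0.55, and the dashed line marks TPP4 at 0.92, which is not among these probe sets because its control signal is below the floor.

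The 2-fold calls of AGPS2 and TPP1 depended on how the arrays were brought to a common level. Bacterial spike controls, 63 probe sets, had a median ratio of 0.34 (SD 0.220 over these probe sets), a difference that the deposited signals carry. With ratios centred on these spikes, AGPS2 was at 0.81 and TPP1 at 0.77, both under 2-fold, SSII-2 was at 0.22 and TPP4 at 0.58. Under the same centring the median of all probe sets at the floor moved from 0.08 to -0.22. After loess, AGPS2 was at 1.03 and TPP1 at 1.13. After quantile normalization they were at 1.11 and 1.18, and when centred on the median ratio at 1.07 and 1.02, so both calls held under these 3 scalings.

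**Figure D3:**
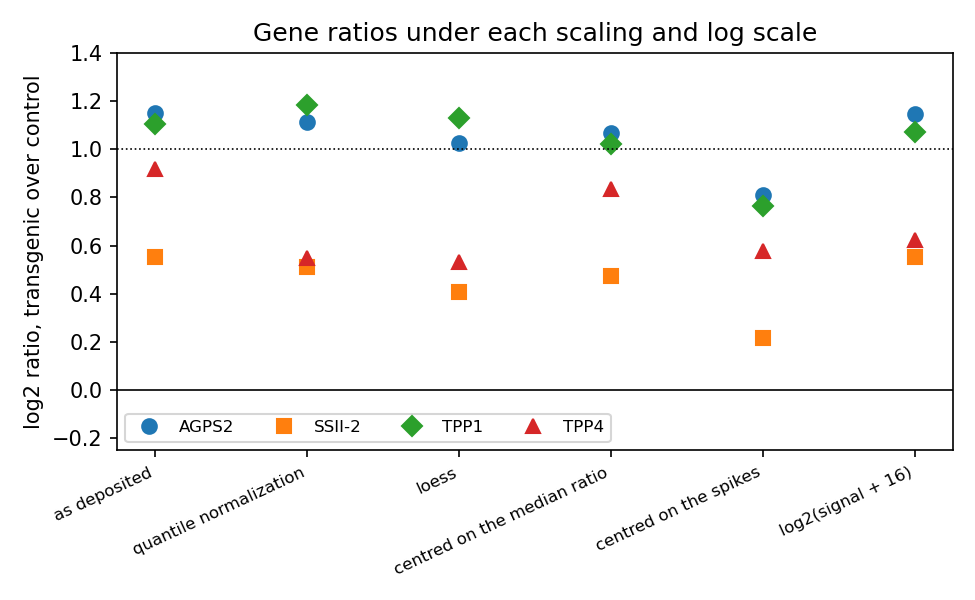
Log2 ratio of LRK1 transgenic over control 9311 (vertical axis) of the 4 genes under 4 scalings of the arrays and with log2(signal + 16), beside the values as deposited, with a dotted line at 2-fold. AGPS2 and TPP1 stay between 1.02 and 1.18 except with spike centring, where they lie at 0.81 and 0.77.

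Among the starch synthesis genes measured on both arrays, AGPS2 alone was past 2-fold in the signals as deposited. Of 8 genes of this list found by symbol or synonym, 7 had a probe set and 6 reached the floor on both arrays. Of these 6, AGPS2 was higher, none was lower, and the median ratio was 0.49, beside 0.02 over all 13526 genes at the floor on both arrays. Over those 13526 genes 6.82% were higher and 11.1% lower. The soluble starch synthase genes SSI (LOC9269493, ratio 0.59) and SSII-1 (LOC4348711, 0.43) lay near SSII-2 and did not reach 2-fold. The starch branching enzyme gene SBE1 (LOC4342117), which adds branch points, was at -0.12, with its 4 probe sets at the floor between -0.12 and 0.02. WAXY (LOC4340018), the granule-bound starch synthase gene of amylose, was at 0.33 on its brightest probe set, and the other 3 at the floor were between -0.58 and -0.41. SSII-3 (LOC4340567), the starch synthase isoform of endosperm, read 6.15 in control and 3.12 in transgenic leaves, while its other probe set read 1.74 and 6.61, so no direction can be given. As deposited 5 of the 6 ratios were positive, and with spike centring 4 were. No gene of the large subunits of ADP-glucose pyrophosphorylase was found by the names searched, so the partner of AGPS2 was not analysed here. Genes of starch synthases III and IV were not found either, so the list covers the pathway in part.

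**Figure D4:**
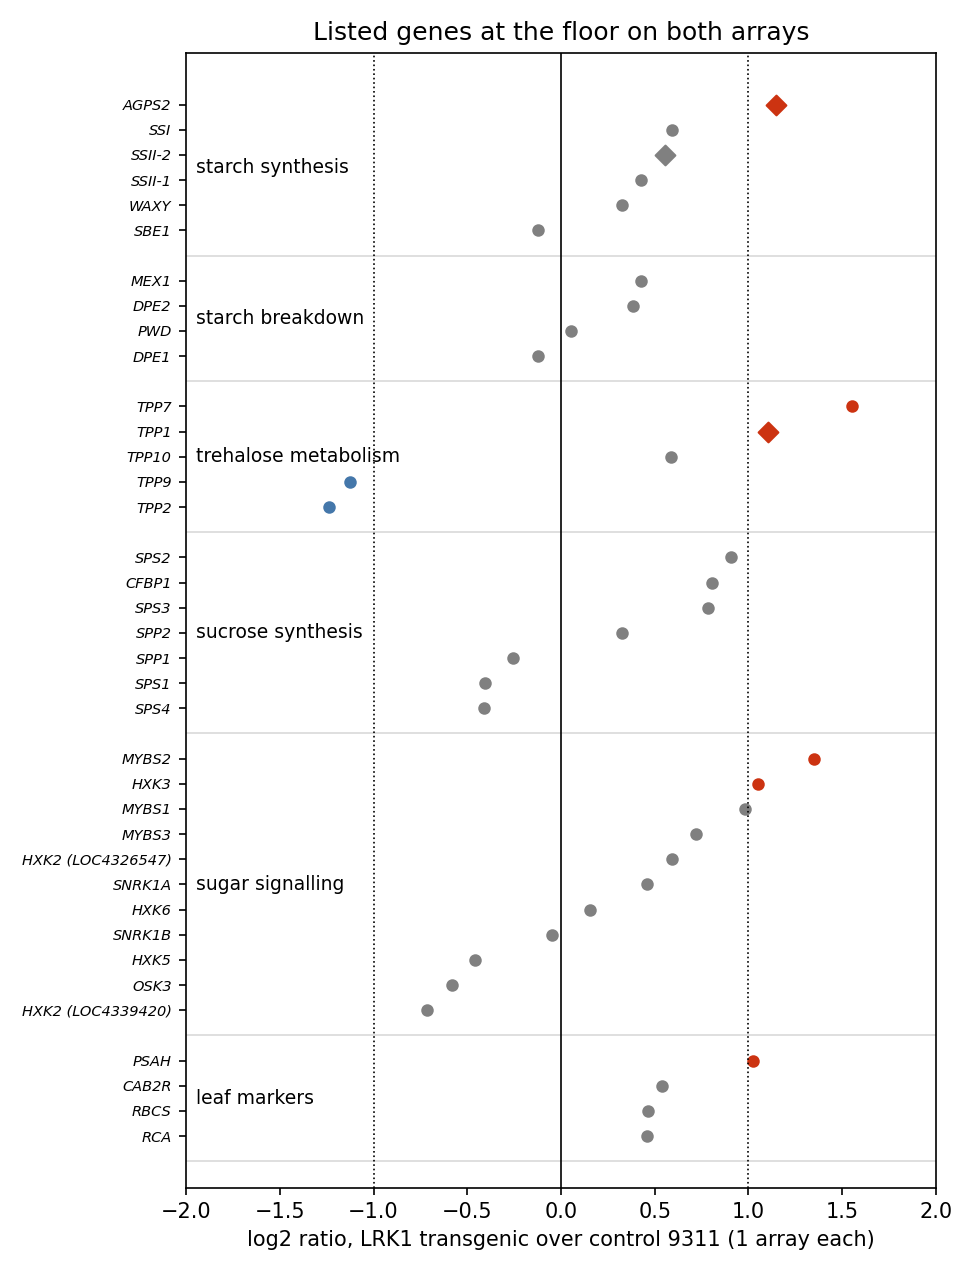
Log2 ratio of LRK1 transgenic over control 9311 (horizontal axis), 1 array each, of listed genes at the floor on both arrays, with diamonds for AGPS2, SSII-2 and TPP1, red for at least 2-fold higher, blue for at least 2-fold lower and dotted lines at 2-fold. Genes of trehalose metabolism lie on both sides, from -1.24 (TPP2) to 1.55 (TPP7), whereas in starch synthesis AGPS2 at 1.15 is the one past 2-fold.

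Leaf markers had positive ratios as well. Of 5 leaf marker genes with a probe set, 4 reached the floor on both arrays, with ratios of 0.46 for both RCA (LOC4351224), of Rubisco activase, and RBCS (LOC4351966), of the Rubisco small subunit, 0.54 for the antenna gene CAB2R and 1.03 for PSAH, of photosystem I. Their summed linear signal over all 5 genes was 168159 in control and 250053 in transgenic leaves, and none was listed at 0. RBCS1 (LOC4352014) was below the floor on both. The ratio of SSII-2 lay within the range of these markers and that of AGPS2 above it, and the part of the leaf markers in either ratio was not tested. In whole leaves, more cells of a type and more RNA per cell cannot be told apart. Of 9 endosperm markers with a probe set, 4 reached the floor on both arrays and 4 were below it on both. The brightest was the glutelin gene GLUA2, at 11.11 in control and 11.60 in transgenic leaves, while its other probe set read 6.61 and 6.51. Of 3 root markers 2 reached the floor on both arrays, LSI1 at 10.40 and 10.50 and NRT2.2 at 6.42 and 6.90, control first. The root marker LSI2 was below the floor on both. With spike centring 0.34 is taken off each of these ratios.

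Of 9 starch breakdown genes with a probe set, 4 reached the floor on both arrays. None of these 4 passed 2-fold, a count too small to set against the 6.82% higher and 11.1% lower over all genes. They had a median of 0.22, or -0.12 with spike centring. The disproportionating enzyme gene DPE2 (LOC4344192), which processes maltose in the cytosol at night, was at 0.39. MEX1 (LOC4336889), the maltose exporter gene of the chloroplast, was at 0.43. PWD (LOC4352028), of phosphoglucan, water dikinase, was at 0.05 and the plastid enzyme gene DPE1 (LOC4343975) at -0.12. On the control array the alpha-amylase genes AMY1A, AMY2A, AMY3A, AMY3D and AMY3E did not reach the floor, and none reached 2 times the floor on the transgenic array, so no fold is given for them. No beta-amylase gene was found by the names searched, so this list covers starch breakdown in part.

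The TPP family moved in both directions. Of 9 genes of trehalose metabolism found by name, all of them TPPs, 8 had a probe set and 5 reached the floor on both arrays. TPP1 and TPP7 were higher and TPP2 and TPP9 lower, which is 2 of 5 in each direction beside 6.82% and 11.1% over all genes. TPP7 (LOC4346885), known for coleoptile growth of rice germinating under water, read 10.98 in control and 12.53 in transgenic leaves, a ratio of 1.55. That probe set can bind several transcripts, but the gene's other probe set, read 8.31 and 9.53, gave a ratio of 1.21. With spike centring the first was at 1.21 and the other, at 0.88, was under 2-fold.

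TPP2 (LOC4349333), a cold-responsive phosphatase gene of rice like TPP1, read 9.61 in control and 8.37 in transgenic leaves, 2.36-fold lower. TPP9 (LOC4332996) read 9.68 in control and 8.55 in transgenic leaves, 2.18-fold lower. These calls held under quantile normalization, with TPP2 at -1.16 and TPP9 at -1.04, and after loess, at -1.21 and -1.10. Both centrings take a constant off each ratio, so they could not remove these lower calls. TPP10 (LOC4343248) was at 0.59, from 6.17 to 6.76, and did not reach 2-fold. TPP3 (LOC4343959) read 5.68 on the control array, near the floor, and 3.39 on the transgenic array. TPP6 (LOC107275814) was below the floor on both arrays, as TPP4 was on the control array. The median of the 5 measured family members was 0.59, or -0.27 over the 4 other than TPP1. No trehalose-6-phosphate synthase gene and no trehalase gene was found by the names searched, so the making of trehalose 6-phosphate was not analysed here.

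Sucrose synthesis, which draws on the same triose phosphates as starch, had 0 of 7 genes at the floor on both arrays past 2-fold, a count not told apart from the 6.82% higher and 11.1% lower over all genes. Sucrose phosphate synthase genes went both ways, with SPS2 (LOC9267741) at 0.91, SPS3 (LOC4341642) at 0.78, SPS1 (LOC4341844) at -0.40 and SPS4 (LOC4345220) at -0.41. CFBP1 (LOC4325071), of cytosolic fructose-1,6-bisphosphatase, was at 0.81, and the sucrose phosphate phosphatase genes SPP1 and SPP2 were at -0.25 and 0.32. The list median of 0.32 was -0.01 with spike centring.

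In the sugar signalling list 2 of 11 genes at the floor on both arrays were higher and none was lower, beside 6.82% higher and 11.1% lower over all genes. MYBS2 (LOC4349391), a MYB factor that represses alpha-amylase genes of rice, read 12.02 in control and 13.37 in transgenic leaves, a ratio of 1.35. A second probe set of MYBS2 was at 2.71 and the third, nearer the floor, at -0.67. A hexokinase gene (HXK3, LOC4326516) was at 1.05 and dropped under 2-fold with quantile normalization, loess and both centrings. The related factor genes MYBS1 (LOC4323963), an activator of alpha-amylase genes, and MYBS3 (LOC4349385), a repressor, were at 0.98 and 0.72 and did not reach 2-fold as deposited. After quantile normalization MYBS1 did, at 1.05. MYBS3 was at 0.06 on its other probe set. The SnRK1 kinase gene SNRK1A (LOC4339410) was at 0.46 on one probe set and -0.46 on the other, and OSK3 (LOC4332495) was at -0.58. SNRK1B (LOC4345873) was at -0.05 on its brightest probe set and at -0.64 and -0.65 on the others. All probe sets of SNRK1B and the brightest of OSK3 can bind several transcripts, so these genes may not be read apart.

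The genes nearest in ratio to AGPS2, TPP1 and SSII-2 were looked up among 1940 named genes at the floor on both arrays. With 2 arrays this likeness is the difference of 1 ratio from another. Nearest to AGPS2 were ABA8OX1, OsPIN5a and OsRR4, at 1.15, 1.15 and 1.15. Nearest to TPP1 were PCF2, CYCD3-1 and CPK3, each within 0.0021 of its ratio. Nearest to SSII-2 were ARF24, ALDP and FH16, each within 0.00079. None are given for TPP4, whose control signal was under the floor.

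The arrays also differed in overall signal and in the 3' weighting of transcripts. The control array had a median log2 signal of 5.21 and the transgenic array one of 5.56. In all 5 housekeeping pairs the control array had the larger 3' to 5' signal ratio. It was 3.87 for GAPDH where the transgenic array had 2.16, but for ubiquitin the arrays were close, at 0.83 and 0.78. Actin pairs were high on both arrays, at 9.45 and 6.95 and at 16.4 and 16.2, control first. The part of this 3' weighting in the ratios of AGPS2, SSII-2, TPP1 and TPP4 was not tested. In 1951 genes with at least 2 probe sets at the floor on both arrays, the median absolute difference between the ratios of the 2 brightest was 0.320. The signed differences had an SD of 0.676. The margins of AGPS2 and TPP1 over 2-fold, 0.15 and 0.10, and the difference between these genes, 0.05, were smaller than that median.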

How the data were processed

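Leaf RNA of each genotype was hybridised to 1 Affymetrix rice GeneChip. The authors deposited log2 signals, and the submitters' processing notes name MAS5. The log2 scale was read from the values (0 to 16.24). The scaling target is not given in the sources used here, and detection calls were not used here. Groups follow the genotype labels. Of 57381 probe sets, 123 controls were kept out. Genes were named through the platform annotation and the gene table of assembly ASM3414082v1, whose coordinates are not used. Of the others, 22436 had 1 gene, 95 several and 34727 none in the table used, and all 17905 genes were found. A gene was represented by its brightest probe set, and the 4 genes by the one their rule names. Unrelated genes that share a symbol (a tripeptidyl peptidase TPP2, signal peptide peptidases SPP1 and SPP2, and SKP1) were left out of the lists.

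The 4 genes, 5 pathway lists and 3 marker lists were chosen with earlier results of these data known. Named genes are the 4, the listed genes, and the 3 nearest in ratio to each measured one. No significance test was run. Alternatives were 4 scalings, log2(signal + 16), other floors, a 1.5-fold rule and other probe sets. The call rule was checked on simulated arrays. Python 3.11.15, pandas 2.3.3 and statsmodels 0.14.6 (loess, span 0.3) were used.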

Additional observations from a re-analysis of the deposited data

How the results depend on the processing

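AGPS2 and TPP1 lost their 2-fold calls with spike centring (0.81 and 0.77) and kept them under the 3 other scalings, with log2(signal + 16) and with a 75th percentile floor. The other alternatives could not change these calls. AGPS2 ranged from 0.81 to 1.15 and TPP1 from 0.77 to 1.18. SSII-2 turned to -0.45 on 1 of its other probe sets, which is also the median of its signals on each array, and the median of its 3 ratios, an alternative chosen after seeing the data, was 0.04. TPP4 ranged from 0.53 to 0.92 without a call. Spike centring takes a constant off each ratio, so it can only remove higher calls and add lower ones. It left 0 higher genes in starch synthesis, 1 in trehalose metabolism (TPP7) and 1 in sugar signalling (MYBS2), and gave 1 lower in sugar signalling (HXK2, LOC4339420). The sugar signalling count of higher genes was also 1 after loess, with centring on the median ratio, with log2(signal + 16) and with a 75th percentile floor. The counts in this section include genes above the floor on 1 array alone. With a 25th percentile floor 3 starch breakdown genes counted as higher, AMY3D and, above the floor on the transgenic array alone, AMY2A and AMY3E. With no floor 4 did, with AMY1A added. The other probe set of AMY3D went the other way, at -0.37. Under both of these floor settings starch synthesis and sugar signalling had 1 lower gene each. The 1.5-fold rule gave 2 higher and 1 lower gene in starch synthesis. In starch synthesis that lower gene was each time SSII-3 (-3.03), whose other probe set was at 4.87, so it shows no direction. The same rule gave 3 higher in sucrose synthesis, and 5 higher and 1 lower in sugar signalling. Signal over background limits TPP4 and the alpha-amylases. No paired analysis was possible because each genotype has 1 array, and for the same reason no array could be left out.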
